A study of Mus musculus with 4 samples.

Results

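The 9 genes described here encode transcription regulators that mark or specify the layers of the cerebral cortex, and they were taken by gene symbol from 27293 genes counted in 4 libraries. They were listed by their known roles in the cortex. Of the 9, 7 are deep layer factors (Tbr1, Fezf2, Bcl11b, Bcl11a, Tle4, Foxp2 and Foxp1) and 2 are upper layer factors (Cux1 and Cux2). All 9 passed the filter on low counts that left 16145 genes for testing.

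The cerebral cortex is built from the inside outwards: progenitors next to the ventricle first give rise to neurons of the deep layers, and later to neurons of the upper layers, which migrate past them. Deep layer neurons send axons out of the cortex to the thalamus, brainstem and spinal cord, whereas most upper layer neurons connect cortical areas with each other. The factors repress one another in part, so that a young neuron settles on 1 projection type.

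RNA was sequenced from telencephalic tissue of C57BL/6 mouse embryos at embryonic day 13 (E13), a stage at which deep layer neurons are being born. Each library was made from 2 µg of total RNA. The 2 WT libraries carry the genotype label WT. In the 2 libraries labelled cKO the genotype is STINGf/f;Nestin-Cre, in which Cre recombinase driven by the Nestin promoter acts on a floxed STING gene in neural progenitors and their descendants, while cells of other origin in the same tissue are not its target. The title of WT 2 carries another abbreviation than that of WT 1, so whether its embryo carried Cre is not known here. The labels do not say whether each library came from 1 embryo or from a pool, and the p-values therefore measure the spread between these libraries only. The total of gene counts per library was 17209654 and 18533391 in WT 1 and WT 2, against 18237989 and 18091688 in cKO 1 and cKO 2.

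The targeted gene, listed under its older symbol Tmem173, had 20 and 19 counts in WT 1 and WT 2, against 18 and 22 in cKO 1 and cKO 2. These counts did not separate the groups (log2 fold change 0.02 with a standard error of 0.45). The quasi-likelihood test of edgeR gave an adjusted p of 0.9999 after Benjamini-Hochberg adjustment over all genes tested, and the same adjusted p held for each of the 9 factors. Genotypes below are those of the labels, and each library is called by its label. Summed counts of 4 Y-linked genes were 2735 and 0 in WT 1 and WT 2, against 3002 and 1848 in cKO 1 and cKO 2. WT 2 thus lacked the male RNA that the other libraries held. Whether each of those held RNA of 1 sex only is not known here, and the part of sex in the values below was not tested.

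Whether layer factors differed between the libraries labelled cKO and WT was asked first. A gene was called when its fold change was at least 2 and its unadjusted p at most 0.05. None of the 9 factors was called, where 131 of all 16145 genes (0.811%) were. No gene had an adjusted p under 0.05 in edgeR or in DESeq2, and 199 genes had an unadjusted p under 0.05 in edgeR. In DESeq2 there were 141 of all 27293 genes without the filter, and 127 of the 16145 genes that passed it. These counts rested on single libraries: without WT 2, 476 genes were called and 116 had an adjusted p under 0.05, without cKO 1 these numbers were 531 and 105, without WT 1 they were 104 and 7, and without cKO 2 they were 121 and 0. Of the 9 factors, 5 had a log2 fold change (cKO over WT) below 0 and 4 above 0. Their median was -0.07, beside -0.01 for all genes tested. The 95% interval of every factor lay inside a 2-fold change in either direction.

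Tbr1 and Fezf2 are the factors that set the choice between the main deep layer projection types. Tbr1, a T-box factor needed for layer VI neurons that project to the thalamus, had 363 and 440.3 CPM (counts scaled to the library total) in WT 1 and WT 2, against 442 and 299.8 in cKO 1 and cKO 2. The gene (ENSMUSG00000035033) is at chr2:61802930-61814114 (plus strand) in GRCm38. The lowest and the highest library were both labelled cKO, and the groups overlapped. After TMM scaling, which adjusts library totals for composition, the mean was 401 ± 59.1 CPM in WT and 372 ± 96.7 CPM in cKO (SD, n = 2 each). Between groups, its log2 fold change came to -0.11 (standard error 0.21, 95% interval -0.60 to 0.38). In bulk RNA, fewer neurons of a type and less RNA in each of them cannot be told apart.

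Fezf2 (ENSMUSG00000021743, chr14:12342094-12348189, minus strand), a zinc finger repressor that directs layer V neurons to the brainstem and spinal cord, had 136 and 164 CPM in WT 1 and WT 2, against 173 and 170.2 in cKO 1 and cKO 2. It was the 1 factor of 9 whose groups did not overlap, with both cKO libraries above both WT libraries. Over all genes tested, 1676 (10.4%) had groups parted in that direction, and 21.6% had groups parted in either direction. The gap between WT 2 and the lower cKO library was smaller than that between the 2 WT libraries. Between groups, its log2 fold change came to 0.20 (standard error 0.16, 95% interval -0.16 to 0.57).

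Bcl11b (also called Ctip2) acts downstream of Fezf2 in neurons that project to the spinal cord, and is also strongly expressed in the striatum. Its level was 354 and 422 CPM in WT 1 and WT 2, against 411 and 324 in cKO 1 and cKO 2. As for Tbr1, cKO 2 was lowest, WT 1 came next, and WT 2 and cKO 1 were close to each other. Between groups, its log2 fold change came to -0.07 (standard error 0.18).

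Bcl11a (Ctip1), a paralog of Bcl11b that is expressed in newborn cortical neurons of more than 1 layer, had 305 and 338 CPM in WT 1 and WT 2, against 358 and 285 in cKO 1 and cKO 2. The 2 cKO libraries enclosed both WT libraries. Between groups, its log2 fold change came to 0.01 (standard error 0.17).

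Tle4, a Groucho family corepressor that marks layer VI neurons, had 58.2 and 58.5 CPM in WT 1 and WT 2, against 59.4 and 45.5 in cKO 1 and cKO 2. The first 3 libraries lay within a narrow range and cKO 2 lay below them. Between groups, its log2 fold change came to -0.15 (standard error 0.18).

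The forkhead factors Foxp2 and Foxp1 mark layer VI and layers III to VI respectively, and both are also made in the striatum. Foxp2 (ENSMUSG00000029563, chr6:14901349-15441977, plus strand) had 32.4 and 30.9 CPM in WT 1 and WT 2, against 31.5 and 17.9 in cKO 1 and cKO 2. Its values in WT 1, WT 2 and cKO 1 lay close together, and the value in cKO 2 stood apart below them. The mean was 31.6 ± 0.647 CPM in WT and 24.8 ± 9.36 CPM in cKO (TMM-scaled, SD, n = 2 each). The log2 fold change of -0.35 (standard error 0.26, 95% interval -0.95 to 0.25) was the most negative among the 9 factors. Foxp1 had 76.5 and 86.9 CPM in WT 1 and WT 2, against 79.7 and 63.8 in cKO 1 and cKO 2, again lowest in cKO 2, with a log2 fold change of -0.18 and a standard error of 0.17.

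The CUT homeobox factors Cux1 and Cux2 mark upper layer neurons of the mature cortex, and Cux2 is also made by dividing cells of the subventricular zone at earlier stages. Cux1 had 234 and 234 CPM in WT 1 and WT 2, against 229 and 255 in cKO 1 and cKO 2. It was highest in cKO 2, the library in which 6 of the 7 deep layer factors were lowest. The share of all genes lowest in cKO 2 is not given here. Cux2 had 97.6 and 122 CPM in WT 1 and WT 2, against 102 and 117 in cKO 1 and cKO 2, with 1 low and 1 high library in each group. The log2 fold change was 0.06 (standard error 0.15) for Cux1 and 0.01 (standard error 0.17) for Cux2.

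**Figure D1:**
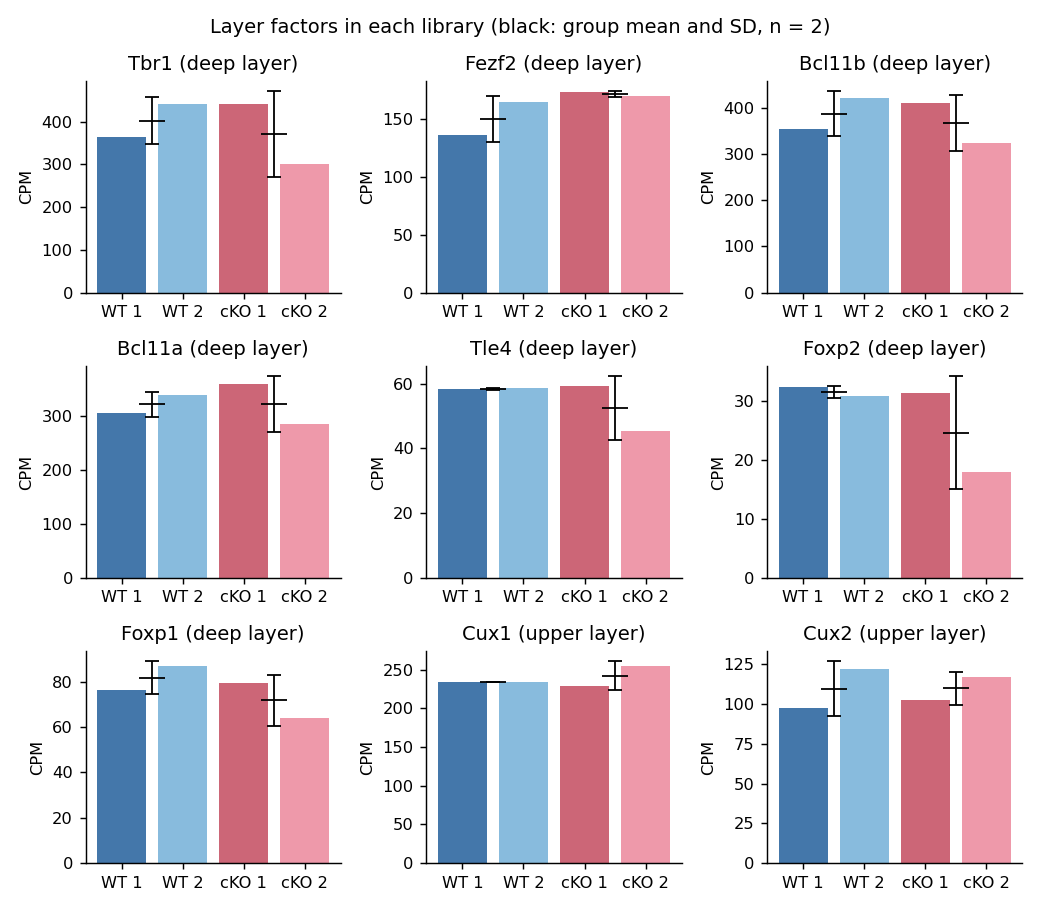
CPM (vertical axis, from 0) of each layer factor in WT 1, WT 2, cKO 1 and cKO 2 (bars), with the group mean and SD in black (n = 2). Among the deep layer factors, cKO 2 is the lowest library for 6 of 7, and Fezf2 is the exception.

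**Figure D2:**
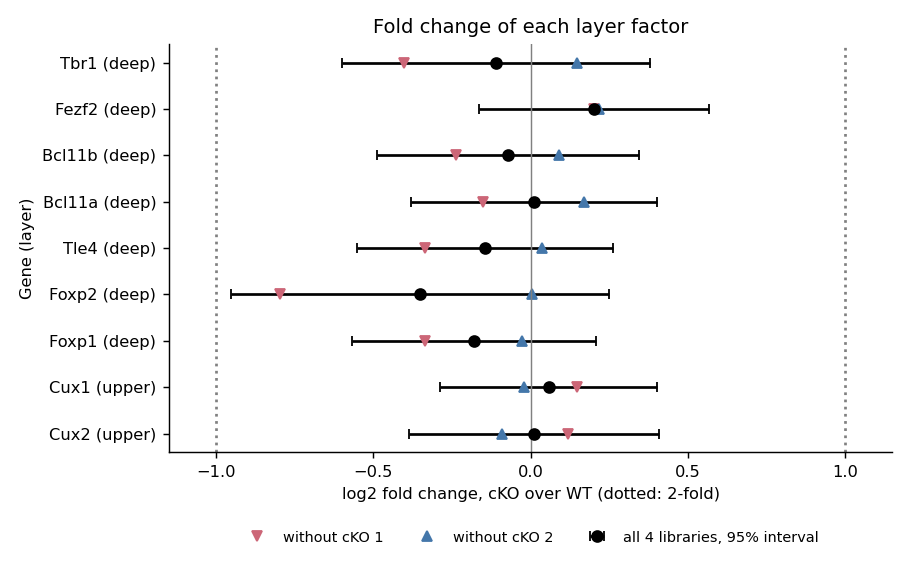
Log2 fold change (cKO over WT) of each factor from all 4 libraries with its 95% interval (black), and from 3 libraries without cKO 1 or without cKO 2 (triangles). Each black interval lies between the dotted lines at a 2-fold change, and the triangles fall on opposite sides of 0 for 7 of the 9 factors.

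The fold changes of most deep layer factors rested on which libraries were used. Without cKO 1, 4 factors (Tbr1, Tle4, Foxp2 and Foxp1) had an unadjusted p under 0.05, where 15.0% of the 16915 genes then tested had one. The log2 fold change of Foxp2 was then -0.80, with an adjusted p of 0.0779 from edgeR over all genes tested, and that of Tbr1 was -0.40 with an adjusted p of 0.287. Without cKO 2, the values were 0.0039 for Foxp2 and 0.15 for Tbr1. Leaving out a WT library also turned signs, to 0.062 for Tbr1 and 0.087 for Bcl11b without WT 2, and to -0.076 for Bcl11a without WT 1. In these fits the lone library of a group is assumed to vary like those of the other group.

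Levels of different genes were compared per kilobase of exon. Exon length was counted over all annotated transcripts together, 31 for Foxp1, 20 for Foxp2, 14 for Cux1 and 3 for Tle4. Where part of that length is not transcribed in this tissue, the level per kilobase comes out too low, and the order below has that limit. Tbr1 was highest at 70.4 ± 12.5 CPM per kilobase (SD over 4 libraries), followed by Fezf2 at 52.9 ± 5.58 and Bcl11b at 46.6 ± 5.75. The ranges of these neighbours overlapped, and in cKO 2 Fezf2 (55.9) lay above Tbr1 (54.6). Bcl11a came next at 24.4 ± 2.49 CPM per kilobase, outside the ranges of the genes above and below it. Cux1 (11.9 ± 0.584), Cux2 (10.9 ± 1.16) and Tle4 (9.71 ± 1.16) overlapped in turn, and Foxp1 (5.58 ± 0.700) and Foxp2 (1.72 ± 0.420) were lowest, each apart from its neighbours. Per kilobase, Tbr1 lay above 96.4% of the tested genes with a known length, and Foxp2 above 29.4%.

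The factors were also compared as the summed CPM of the 7 deep layer factors over that of the 2 upper layer factors. Cux2 is also made by dividing cells, and Bcl11b, Foxp1 and Foxp2 in the striatum. At E13 the ratio therefore describes these RNAs only, and not the numbers of deep and upper layer neurons. The deep layer sum was 1325 and 1541 CPM in WT 1 and WT 2, against 1555 and 1207 in cKO 1 and cKO 2. The upper layer sum was 331 and 356 CPM in WT 1 and WT 2, against 331 and 372 in cKO 1 and cKO 2. The ratio was 4.00 and 4.33 in WT 1 and WT 2, against 4.70 and 3.24 in cKO 1 and cKO 2. The highest and the lowest ratio both came from libraries labelled cKO, so the groups overlapped. The mean log2 ratio was 2.06 in WT and 1.96 in cKO, a difference of -0.09, while the 2 cKO libraries were 0.54 apart and the 2 WT libraries 0.11 apart. Without cKO 2 the difference was 0.17, and without cKO 1 it was -0.36. No test is given, since the smallest two-sided exact permutation p for 2 libraries against 2 is 1 in 3.

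**Figure D3:**
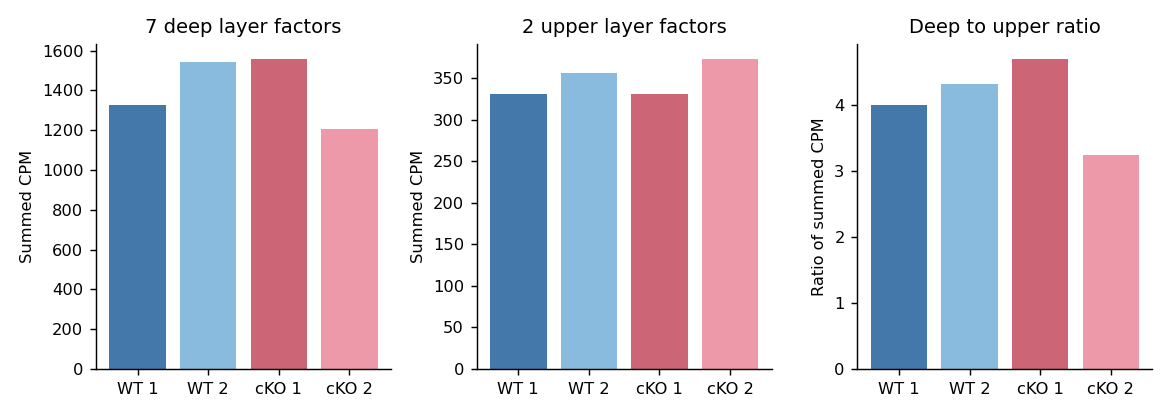
Summed CPM of the 7 deep layer factors (left) and of the 2 upper layer factors (middle), and their ratio (right), in each library, with all axes from 0. The ratio runs from 3.24 in cKO 2 to 4.70 in cKO 1, and both WT libraries lie between them.

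The spread within the cKO group varied with base composition across all genes. The tested genes were ranked by GC content and divided into 5 bins of like size. In the bin with the lowest GC content, the median log2 ratio of cKO 2 over cKO 1 was -0.51, and in the bin with the highest it was 0.31. For WT 2 over WT 1 these medians were -0.13 and 0.04. By exon length, the median of cKO 2 over cKO 1 ran from 0.22 in the bin of the shortest genes to -0.23 in that of the longest. Foxp2, whose longest transcript has 42.6% GC, lies in the bin of lowest GC content and, with 16346 bases of exon, in that of the longest genes.

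A correction of each library for GC content, chosen after the data were seen, reduced the spread of the bin medians from 0.82 to 0.03 on the log2 scale. It was fitted to the same genes and libraries, so this drop was built into it and is no test of the correction. The log2 ratio of cKO 2 over cKO 1 for Foxp2 was -0.79 before and -0.41 after this correction. For Bcl11a it was -0.31 before and -0.07 after, and for Foxp1 it was -0.30 before and -0.07 after. Tbr1, with 51.9% GC, kept its distance, from -0.54 before to -0.64 after, and Bcl11b went from -0.32 to -0.35. Fezf2 went from -0.0046 before to -0.25 after, so that it too was further below 0. All 7 deep layer factors were below 0 both before and after the GC correction, and 6 of 7 after a like correction for exon length. Of the upper layer factors, Cux1 went from 0.18 to 0.16 with the GC correction, and Cux2 from 0.22 to -0.015. With the length correction Cux1 was at 0.56 and Cux2 at 0.45. Of all genes tested, 48.4% were lower in cKO 2 than in cKO 1 before correction, 50.1% after that for GC content and 47.6% after that for exon length. The log2 fold change of Foxp2 between groups was -0.28 with the GC correction, and the ratio of deep to upper sums was then 3.95 and 4.31 in WT 1 and WT 2, against 4.57 and 3.38 in cKO 1 and cKO 2. With the length correction the cKO libraries lay further apart, at 4.96 and 2.99, beside 3.96 and 4.49 in the WT libraries.

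**Figure D4:**
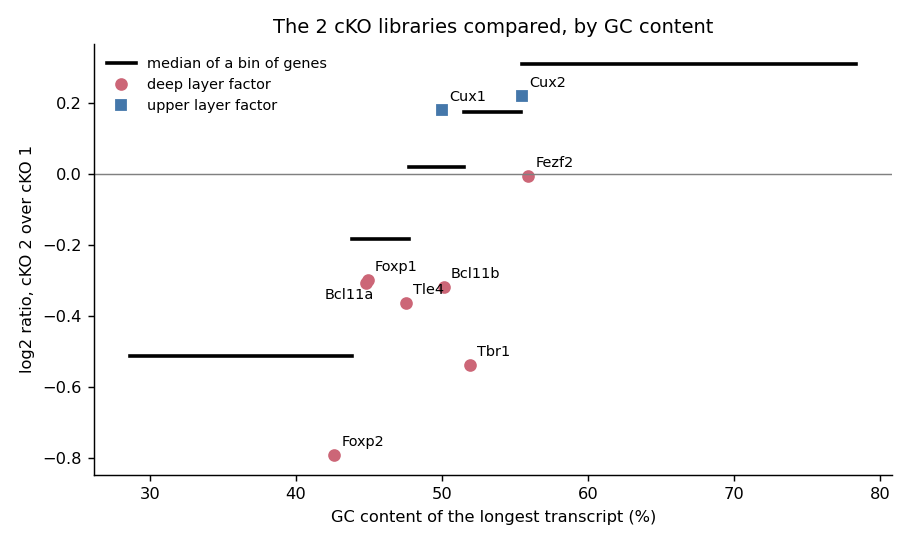
Log2 ratio of cKO 2 over cKO 1 (vertical axis) against the GC content of the longest transcript in percent (horizontal axis). Black lines are medians of the 5 bins of tested genes, drawn over the GC range of each bin, from -0.51 to 0.31, and Tbr1 at -0.54 lies below the line of its own bin at 0.17.

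Other genes of the layer programmes were described by lists. Of the 16 early-born, subplate and deep layer genes in the table, 15 were tested and 0 were called, with a median log2 fold change of 0.01. The most abundant, the adhesion molecule Cntn2, had 672 and 958 CPM in WT 1 and WT 2, against 921 and 878 in cKO 1 and cKO 2. Etv1, a layer V marker, had 32.1 and 28.9 CPM in WT 1 and WT 2, against 23.9 and 14.8 in cKO 1 and cKO 2, with both cKO libraries below both WT libraries, as in 11.2% of all genes tested. Its longest transcript has 39.8% GC, within the bin of lowest GC content described above. The median log2 fold change (cKO over WT) of that bin was -0.14. In the same list 8 of 15 genes had a log2 fold change above 0. The groups did not overlap for 3 genes lower in cKO (Etv1, Ldb2 and Lmo3) and for 1 gene higher in cKO (Nxph4). The log2 fold change of Etv1 of -0.65 (standard error 0.24) had an adjusted p of 0.9999 in edgeR. Of the 15 upper layer and callosal genes, 0 were called and the median was -0.08. Of 15 family members and partners of the factors, 0 were called and the median was 0.07. These medians stand beside -0.01 for all genes tested.

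No marker of cortical neurons, their progenitors or Cajal-Retzius cells was called. Each of the 27293 genes had a count in some library, so no listed marker among them could be at 0 in all 4. En1, listed for diencephalon and midbrain, was not analysed here. The 11 cortical neuron markers had a median log2 fold change of -0.11 and summed to 5712 and 6552 CPM in WT 1 and WT 2, against 6054 and 5691 in cKO 1 and cKO 2. None of the deep layer factors is among these neuron markers, so the 2 sums were compared as a ratio. The ratio of the deep layer sum to that neuron sum was 23.2% and 23.5% in WT 1 and WT 2, against 25.7% and 21.2% in cKO 1 and cKO 2. The order depended on Tubb3, the most abundant neuron marker, at 1698 and 2246 CPM in cKO 1 and cKO 2. Other neuron markers ran both ways. Mapt had 630 and 789 CPM in cKO 1 and cKO 2, Dcx 1084 and 517, and Map2 756 and 395. Without Tubb3, a sum chosen after the data were seen, the ratio was 33.8% and 34.2% in the WT libraries. It was then 35.7% and 35.0% in cKO 1 and cKO 2, so cKO 2 was no longer lowest. The 10 radial glia markers, led by Vim, had a median of 0.06 and the 7 intermediate progenitor markers, led by Neurog2, one of 0.07. The 9 Cajal-Retzius markers, led by Reln, had a median of -0.03.

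Markers of tissue around the cortex were compared in the same libraries. The 17 markers of ventral telencephalon and striatum, where Bcl11b, Foxp1 and Foxp2 are also made, summed to 1325 and 1230 CPM in WT 1 and WT 2, against 860 and 1259 in cKO 1 and cKO 2. The lowest library was cKO 1 for 12 of the 17, among them Dlx1, the most abundant. It was cKO 2 for the other 5 (Gad1, Isl1, Ebf1, Ikzf1 and Rarb). Of the 7 deep layer factors, 6 were also lowest in cKO 2, Bcl11b, Foxp1 and Foxp2 among them. Longest transcripts of the 5 markers have 43.05% (Ebf1) to 47.81% GC (Rarb), and those of the 12 have 44.1% (Gad2) to 60.74% (Gsx1). The part of GC content in this order was not tested. None of the 17 was called, and 16 of 17 had a log2 fold change below 0, beside 52.1% of all genes tested. Their median was -0.24. The groups did not overlap for 5 of the 17 (Gad1, Gad2, Isl1, Ebf1 and Ikzf1), lower in cKO, beside 11.2% of all genes tested. Gad1, an enzyme of GABA synthesis, had a log2 fold change of -0.45 (standard error 0.15) with an adjusted p of 0.9999 in edgeR. The 14 meningeal and mesenchymal markers, led by Col3a1, summed to 348 and 63.2 CPM in WT 1 and WT 2, against 81.5 and 46.8 in cKO 1 and cKO 2. Of the 10 tested, 5 were called lower in cKO, where 108 of all 16145 genes were. Choroid plexus markers, 8 of them analysed (Ttr and Clic6 were not analysed here) and led by Otx2, summed to 62.1 and 10.4 CPM in WT 1 and WT 2, against 7.24 and 8.84 in cKO 1 and cKO 2, and all 4 tested (Kcne2, Aqp1, Otx2 and Htr2c) were called lower. Without WT 1, 0 of these 4 and 2 of the 5 meningeal genes were called. WT 1, with the highest sums of meningeal and choroid plexus markers, had less than WT 2 of 6 of the 7 deep layer factors. The lowest meningeal sum was in cKO 2, the library in which 6 of the 7 deep layer factors were lowest. The shares of all genes with these orders are not given here, so the counts are not set apart from those of other genes. The 9 cortical hem markers (median -1.03, led by Wnt5a), the 9 endothelial and mural markers (median -0.38, led by Rgs5) and the 9 blood markers (median -0.36, led by Hbb-y) held no called gene. Nor did the 7 microglial markers (median -0.12, led by Csf1r) or the 6 tested diencephalon and midbrain markers (median -0.29, led by Lhx9). Each of these lists had its highest summed CPM in WT 1. The hem sum was 88.8 and 33.8 CPM in WT 1 and WT 2, against 40.1 and 36.8 in cKO 1 and cKO 2. In the same order the endothelial and mural sum was 283 and 202, against 190 and 177. The blood sum was 1093 and 585, against 475 and 715. The part of these tissues in the values of the layer factors was not tested.

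Among the 9 factors are 3 pairs of paralogs, Bcl11a with Bcl11b, Foxp1 with Foxp2 and Cux1 with Cux2. No stretch of 50 bases is shared by the transcripts of any pair. Bcl11a shares 316 bases of exon with the antisense gene 4930538E20Rik, which had 16 and 31 counts in WT 1 and WT 2, against 39 and 18 in cKO 1 and cKO 2. Cux1 shares 394 bases with the antisense gene Gm16599, which had 0 and 1 counts in the WT libraries and 0 in each cKO library, and the strand setting of the counting is not given in the sources used here. Foxp1 shares 435 bases with 2 genes on its own strand, of which Gm20696 had 2 counts in cKO 1 and 0 in each of the other libraries, and Gm49348 was not analysed here. These counts are small beside those of the factors, though how reads from the shared stretches were assigned is not known here.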

How the data were processed

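The authors deposited raw read counts per gene for 4 libraries. Per the labels, the processing notes list TopHat2 2.0.12, Bowtie2 2.2.3 and HTSeq 0.6.0, and the build mm9, while 97.3% of the gene positions match GRCm38 (GENCODE M21). Of 27304 rows, 11 (0.0403%) were blank and left out. The authors' own comparison columns (fold changes and p-values) and a second table of 2 of the libraries were not used. The quasi-likelihood test of edgeR 4.0.16 (R 4.3.3, TMM scaling, filterByExpr, no covariate) was run on all genes, with DESeq2 1.42.0 as an alternative, and the procedure was tested on simulated data. A count of 0 allows 3 counts, or 0.162 to 0.174 CPM, for counting error only. Exon length and GC content came from GENCODE M21 (99.8% of tested genes). GC and length corrections (lowess, span 0.3) and DESeq2 on the filtered genes were added after the data were seen. All 9 factors are named. List genes are named when most abundant or called, and some items are not reported here. Etv1, Ldb2, Lmo3, Nxph4, Gad1, Gad2, Isl1, Ebf1, Ikzf1, Rarb and the overlapping genes were picked with their values known. The members and lists were chosen with earlier results of these data known.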

Additional observations from a re-analysis of the deposited data

How the results depend on the processing

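None of the 9 layer factors was called under any alternative run. The number of genes called was 131 and moved to 405 with no filter, 82 with DESeq2 on all 27293 genes, 65 with DESeq2 on the same 16145 genes as edgeR (chosen after the data were seen), 72 where each library had to hold 10 counts or more and 14 at an unadjusted p of at most 0.01. With 1 library left out it ran from 104 to 531. The number with an adjusted p under 0.05 (edgeR) was 0, or 65 with no filter, and from 0 to 116 with 1 library left out. With the replicate number as a block, 208 genes were called and 5 had an adjusted p under 0.05. The labels do not say that the numbers pair libraries, and deviations of same-numbered libraries correlated at 0.108 across genes.

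With all 4 libraries kept, 80 of 81 fold changes of the factors had the same sign, and Cux2 turned to -0.028 with the GC correction. With 1 library left out, 7 factors changed sign. The log2 fold change of Tbr1 ran from -0.40 to 0.15, Bcl11b from -0.24 to 0.091, Bcl11a from -0.15 to 0.17, Tle4 from -0.34 to 0.037, Foxp2 from -0.80 to 0.0039, Cux1 from -0.022 to 0.15 and Cux2 from -0.15 to 0.21. The other 2 kept their sign, Fezf2 from 0.061 to 0.37 and Foxp1 from -0.33 to -0.026. The difference in log2 deep to upper ratio (cKO minus WT) ran from -0.36 to 0.17 with 1 library left out, and from -0.14 to -0.05 under the other alternatives. The cause was not tested.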
